A study of Homo sapiens with 9 samples.

Results

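The 88 genes described here are the cadherins and the clustered and non-clustered protocadherins, the calcium-dependent adhesion molecules with extracellular cadherin repeats. The rule that chose them used their names, taking every gene of the table whose symbol is CDH, PCDH or one of the cluster prefixes PCDHA, PCDHAC, PCDHB, PCDHGA, PCDHGB and PCDHGC followed by a number, which gave 88 of 60603 genes. There were 23 CDH genes, 11 non-clustered protocadherins and 54 clustered protocadherins, and the last lie in the alpha, beta and gamma clusters on chromosome 5. PCDHA14, which the rule counts among the clustered genes, is annotated as a transcribed unprocessed pseudogene. RNA of TC32 cells was sequenced in 3 groups of 3 libraries. TC32 is an established Ewing sarcoma line that carries the EWS::FLI1 fusion, and its genotype label is WT in all groups. The siEF cells received an siRNA over the breakpoint of the fusion. A nonspecific siRNA was used in siNEG, and Media is labelled as medium without siRNA. All groups were labelled 30 h, batch 1 and 10% FBS, and the replicates are called biological replicates of this 1 cell line. The comparison of siEF with siNEG asks how these genes differ when the fusion is targeted, and that of siNEG with Media how they differ with a nonspecific siRNA.

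Type I cadherins such as E-cadherin and N-cadherin bind cadherins on the neighbouring cell and are linked by beta-catenin and alpha-catenin to actin. Type II cadherins such as CDH11 use a related binding interface and are prominent in mesenchyme and in the nervous system. Clustered protocadherins are best known from neurons, where each cell uses a few isoforms through promoter choice, and those of the alpha and gamma clusters join a variable first exon to constant exons shared across the cluster. Non-clustered protocadherins, many of them of the delta group, are encoded by separate genes with roles in cell sorting and axon growth.

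The values are the read numbers that RSEM estimated for each gene, and a library held between 20727706 and 33134581 of them. Levels are given as CPM, the counts scaled to a common library total after TMM scaling. RPKM, used only to compare genes with each other, is that CPM per kilobase of the gene's canonical GENCODE 44 transcript. Differences were tested with edgeR's quasi-likelihood test, fitted to the 16093 genes that passed its filter on low counts, and a call needed both an adjusted p under 0.01 and a change of more than 1 on the log2 scale. FLI1, whose 3′ part is in the fusion, was at 37.8 ± 2.002 CPM (SD, n = 3) in siEF, 48.4 ± 0.315 in siNEG and 57.9 ± 1.65 in Media, and siEF differed from siNEG by -0.35 on the log2 scale (SE 0.06, adjusted p = 2.88e-05 in edgeR's quasi-likelihood test). The paper states that silencing was checked by qPCR, with a 3-cycle change, a measure unlike the gene-level FLI1 counts given here. Of the markers of this tumour, CD99 was at 189, 161 and 204 CPM in siEF, siNEG and Media, and NKX2-2, NR0B1, STEAP1, PAX7 and CCND1 were detected in all groups and called lower in siEF. Of the haematopoietic markers, CD3E had no counts, PTPRC did not exceed a mean of 0.112 CPM, and CD14 was at 0.820 CPM in siEF, 0.496 in siNEG and 0.664 in Media and was not called.

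Of the 88 members, 57 were tested. In siEF against siNEG, 28 were higher and 12 lower, where 17.1% of all genes tested were called higher and 11.7% lower. The median log2 fold change was 1.10 over the 57 tested members and 0.05 over all genes tested. The siEF libraries all lay above the siNEG libraries for 35 tested members and all below for 12, and over all genes tested these shares were 39.8% and 37.1%. The remaining 31 members were too low to test, with at most 32 counts in any library in the clusters and at most 10 elsewhere. Of these, 13 had at most 3 counts in every library (CDH9, CDH15, CDH16, CDH17, CDH18, CDH19, PCDH15, PCDHA2, PCDHA3, PCDHA9, PCDHA13, PCDHB1 and PCDHB6) and 7 of the 13 had no count at all. By class, none of the 33 tested clustered protocadherins was called lower and 20 were called higher, whereas 6 of the 8 tested non-clustered protocadherins were called lower and 2 higher, and the 16 tested CDH genes held 6 of each. Low members had to be higher in some group to pass the filter, and 15 of the 20 clustered ones called higher were under 1 CPM in siNEG.

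Summed over each class, the CDH genes were at 808 ± 29.6 CPM (SD, n = 3) in siEF, 260 ± 7.45 in siNEG and 299 ± 9.68 in Media. The non-clustered protocadherins were at 229 ± 11.05 CPM in siEF, 721 ± 36.6 in siNEG and 704 ± 29.9 in Media. The clustered protocadherins were at 306 ± 2.99 CPM in siEF, 121 ± 9.74 in siNEG and 131 ± 5.26 in Media. The sums of siEF were thus 3.11-fold higher for CDH genes, 3.16-fold lower for non-clustered protocadherins and 2.52-fold higher for clustered protocadherins than those of siNEG. In each class the 3 siEF libraries lay apart from the 6 others. A sum over a class is carried by its most abundant genes and was not tested. For the CDH genes most of the sum was CDH11, at 671 CPM in siEF and 174 in siNEG. Fewer cells of a kind and less RNA per cell cannot be told apart in these bulk libraries.

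**Figure D1:**
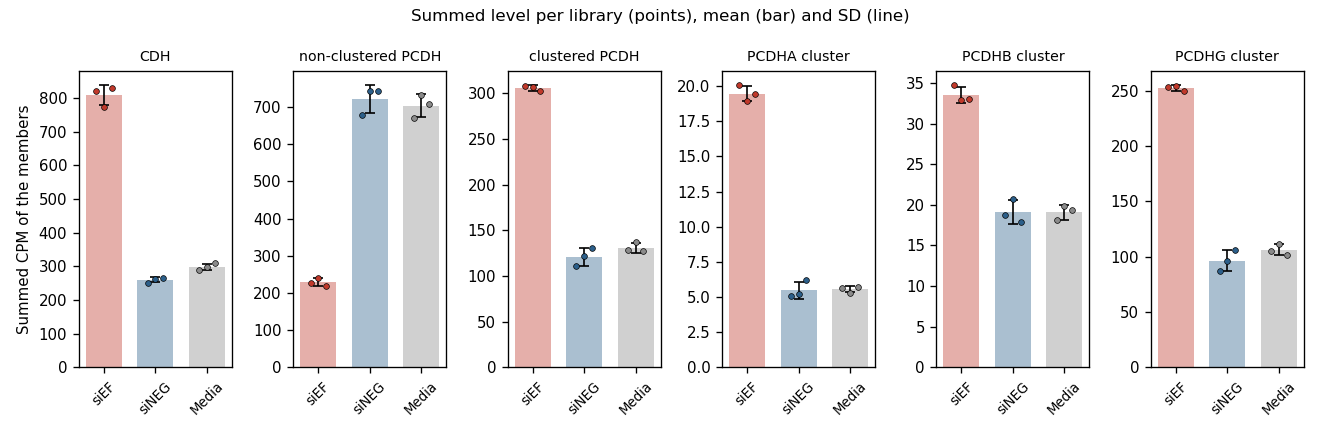
Summed TMM-scaled CPM of the members in each of the 9 libraries (points), with the mean (bar) and SD (line) of each group of 3, for the 3 classes and for each cluster. The siEF libraries sit near 808 CPM for CDH genes and 306 for clustered protocadherins, above both controls, and near 229 for non-clustered protocadherins, below both.

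CDH11 ranked first per transcript length in both siEF and siNEG, in siNEG level with PCDH17. CDH11 (OB-cadherin, chromosome 16, 64943753 to 65126112, minus strand) is a type II cadherin of osteoblasts and mesenchymal cells. It had 687, 639 and 688 CPM in siEF replicates 1, 2 and 3, 165, 179 and 177 CPM in the siNEG replicates and 194, 202 and 210 CPM in the Media replicates. All siEF libraries lay above all others. Between siEF and siNEG the log2 fold change was 1.95 (SE 0.05, adjusted p = 4.34e-15 in edgeR's quasi-likelihood test), and that against Media was 1.73. In RPKM, CDH11 rose from 25.8 ± 1.10 (SD, n = 3) in siNEG to 99.9 ± 4.18 in siEF.

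Of the 5 type I cadherins, 3 were called higher, none lower, and CDH4 was tested but not called. CDH3 (P-cadherin, chromosome 16, 68636189 to 68727468), found in basal epithelia, had 43.9, 43.7 and 45.9 CPM in the siEF libraries, 13.4, 11.8 and 11.99 in siNEG and 12.2, 13.6 and 11.98 in Media. The siEF values did not overlap with those of either control, and the log2 fold change against siNEG was 1.85 (SE 0.07, adjusted p = 7.47e-13 in the same test of edgeR). CDH1 (E-cadherin, the cadherin of epithelial adherens junctions) lies just downstream on the same strand of chromosome 16, from 68737292 to 68835537. CDH1 had 28, 16 and 27 counts in the siEF libraries, 0 in each siNEG library and 2, 3 and 2 in Media. Set against 3 counts in each siNEG library, the siEF level of CDH1 was at least 9.74-fold higher, and its log2 fold change against Media was 3.49 (SE 0.52, adjusted p = 2.37e-05, edgeR). The level in siEF was still only 0.907 ± 0.115 CPM (SD, n = 3). Of the epithelial markers that are no members, KRT8 was at 10.8 CPM in siEF, 1.59 in siNEG and 1.71 in Media. EPCAM was at 0.406 CPM in siEF, 0.0400 in siNEG and 0.399 in Media, so that it differed from siNEG in both other groups and not between siEF and Media beyond their spread. The sum of KRT8 and EPCAM ranged from 10.6 to 11.95 CPM in the siEF libraries and from 1.36 to 2.08 in the siNEG and 1.85 to 2.38 in the Media libraries, and their part in the values of CDH1 was not tested.

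CDH2 (N-cadherin, the type I cadherin of neural and mesenchymal cells) had 10.7, 12.8 and 13.5 CPM in the siEF libraries, 6.03, 5.69 and 5.48 in siNEG and 6.76, 6.69 and 7.68 in Media. It was higher in siEF than in siNEG by 1.10 on the log2 scale (SE 0.11, adjusted p = 1.51e-07, edgeR). Against Media the difference was 0.81 and stayed under the fold cut-off, although the groups did not overlap. CDH4 (R-cadherin) had a log2 fold change against siNEG of 0.47 (SE 0.20, adjusted p = 0.0400, edgeR), on 49 to 86 counts in the siEF and 54 to 74 in the siNEG libraries. CDH15, the muscle cadherin, had 1 count in all siEF libraries together and none elsewhere.

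The type II cadherins split by direction, with 5 of the 10 tested lower in siEF and CDH11 and CDH6 higher. The lower genes were CDH10, CDH12, CDH20, CDH7 and CDH8, which are known mainly from the nervous system and neural crest. CDH10 (chromosome 5, 24487100 to 24644978, minus strand) had 48, 56 and 51 counts in the siEF libraries, 535, 509 and 529 in siNEG and 565, 513 and 525 in Media. All siEF libraries lay far below the 6 control libraries, with a log2 fold change against siNEG of -3.01 (SE 0.14, adjusted p = 5.67e-12, edgeR). CDH12, on the same strand of chromosome 5 (21750673 to 22853344), had 1, 8 and 0 counts in the siEF libraries, 46, 49 and 36 in siNEG and 45, 49 and 52 in Media. All siEF libraries of CDH12 lay below all others, with a log2 fold change against siNEG of -3.45 (SE 0.60, adjusted p = 6.70e-05, edgeR). CDH20 fell from 69, 81 and 79 counts in siNEG to 5, 8 and 10 in siEF, a log2 fold change of -2.97. CDH7 and CDH8 had log2 fold changes of -1.60 and -1.86, with no siEF library above 27 counts for CDH7 or 14 for CDH8 and no siNEG library under 89 and 47. All 5 were also called lower in siEF than in Media, by log2 fold changes between -2.03 and -3.70.

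The other type II cadherins were at low or little changed levels. CDH6 (K-cadherin) was called higher against siNEG by 2.85 on the log2 scale (SE 0.65, adjusted p = 8.82e-04, edgeR), on 14, 7 and 10 counts in siEF and 2, 2 and 1 in siNEG. Media held 2, 7 and 7 counts of CDH6, and the difference from Media was not called (log2 fold change 1.16, adjusted p = 0.0623, edgeR). CDH5 (VE-cadherin, the cadherin of endothelial junctions) had 19, 14 and 18 counts in siEF, 16, 2 and 2 in siNEG and 3, 5 and 1 in Media. Against siNEG it was not called (log2 fold change 1.65, adjusted p = 0.0262, edgeR), while against Media it was (2.69, adjusted p = 0.00280). Without siNEG replicate 1, which held 16 of the 20 siNEG counts, the log2 fold change of CDH5 against siNEG was 3.31 and was called. The endothelial marker PECAM1 went the other way, from 3.69 CPM in siNEG to 1.60 in siEF, and VWF did not exceed a mean of 0.0626 CPM in any group. CDH24 had 8.06 CPM in siEF and 5.42 in siNEG, a log2 fold change of 0.58 that passed the adjusted p but not the fold cut-off, and CDH22 was not called (-0.84).

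Of the cadherins outside types I and II, 2 were tested and they moved in opposite directions. CDH13 (T-cadherin, which is held to the membrane by a lipid anchor in place of a transmembrane segment) had 58.8, 57.7 and 61.9 CPM in the siEF libraries, 26.1, 26.9 and 28.4 in siNEG and 28.4, 27.9 and 28.0 in Media. It was higher in siEF by 1.13 on the log2 scale (SE 0.06, adjusted p = 2.13e-11, edgeR). CDH23, a long cadherin of the tip links of sensory hair cells, had 2.64, 3.28 and 2.64 CPM in siEF, 7.65, 8.02 and 9.39 in siNEG and 11.5, 14.2 and 13.9 in Media. The 3 groups of CDH23 did not overlap, and siEF differed from siNEG by -1.56 on the log2 scale (SE 0.14, adjusted p = 2.87e-08, edgeR) and from Media by -2.23. Between siNEG and Media, CDH23 had a log2 fold change of -0.66 (adjusted p = 7.48e-04, edgeR), which was under the fold cut-off.

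The 4 most abundant non-clustered protocadherins were lower in siEF, and in siNEG they held 4 of the first 6 places among all members by RPKM. PCDH17 (chromosome 13, 57631744 to 57729311), a delta protocadherin of axons and synapses, had 45.7, 48.5 and 44.8 CPM in the siEF libraries, 194, 220 and 224 in siNEG and 208, 231 and 213 in Media. All siEF libraries lay below all control libraries, and the log2 fold change against siNEG was -2.20 (SE 0.06, adjusted p = 1.53e-14, edgeR). PCDH10 (OL-protocadherin, chromosome 4, 133149294 to 133208606) had 40.8, 38.3 and 35.0 CPM in siEF, 161, 162 and 164 in siNEG and 174, 181 and 188 in Media. Its log2 fold change was -2.10 against siNEG (SE 0.06, adjusted p = 7.00e-15, edgeR) and -2.25 against Media. PCDH19 (chromosome X, 100291644 to 100410273, minus strand), known as a gene of epilepsy, had 42.5, 48.3 and 39.8 CPM in siEF, 147, 171 and 170 in siNEG and 108, 126 and 123 in Media. PCDH19 differed between all 3 groups without overlap, by log2 fold changes of -1.91 for siEF against siNEG (SE 0.08, adjusted p = 1.69e-12, edgeR) and 0.45 for siNEG against Media (adjusted p = 4.43e-04). PCDH7 (NF-protocadherin, chromosome 4, 30720369 to 31146805) had 79.0, 88.2 and 78.3 CPM in siEF and 168, 180 and 177 in siNEG, and the log2 fold change was -1.10 (SE 0.05, adjusted p = 8.96e-12, edgeR).

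In RPKM the order of the members changed between siNEG and siEF. In siNEG, CDH11 at 25.8 ± 1.10 and PCDH17 at 25.7 ± 1.96 (SD, n = 3) were within their spread of each other. PCDH7 at 19.9 ± 0.729 and PCDH10 at 19.1 ± 0.151 followed and were also within their spread of each other, as were PCDHGC3 at 16.9 ± 1.99 and PCDH19 at 16.7 ± 1.37. In siEF, CDH11 was followed by PCDHGC3 at 38.6 ± 0.708, with PCDH7 at place 4 (9.33 ± 0.630), PCDH17 at 7 (5.58 ± 0.237), PCDH10 at 9 (4.47 ± 0.340) and PCDH19 at 10 (4.46 ± 0.445). CDH10 went from place 7 to place 19.

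The remaining tested non-clustered protocadherins were PCDH18, PCDH1, PCDH20 and PCDH9. PCDH18 (chromosome 4, 137518918 to 137532494, minus strand), on the same chromosome as PCDH10, was higher in siEF, with 15.9, 14.7 and 18.6 CPM against 6.07, 6.13 and 6.22 in siNEG and 7.51, 7.61 and 7.58 in Media. Its log2 fold change against siNEG was 1.42 (SE 0.10, adjusted p = 1.37e-09, edgeR). PCDH1, known from airway epithelium, had 45, 35 and 46 counts in siEF, 0, 2 and 0 in siNEG and 2, 2 and 4 in Media. The ratio of the scaled counts of siEF to siNEG for PCDH1 was 78.9, with a 95% exact interval of 21.4 to 659 that covers counting error only, and siEF was also called higher than Media (log2 fold change 4.15, adjusted p = 1.54e-06, edgeR). PCDH20 was lower in siEF, with 15, 16 and 19 counts against 69, 75 and 40 in siNEG (log2 fold change -1.53, adjusted p = 2.95e-04, edgeR). In GENCODE 44, 91.3% of the exonic bases of PCDH20 also belong to another gene annotated on the same strand, and that gene's row held no counts, so the counts of PCDH20 are uncertain. PCDH9 had 0, 2 and 1 counts in siEF and 8, 14 and 7 in siNEG, a ratio of 0.130 with a 95% exact interval of 0.0253 to 0.418 for counting error only. PCDH9 lost its call in DESeq2 (adjusted p = 0.0170). PCDH8 and PCDH12 were too low to test and PCDH15 had no count.

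**Figure D2:**
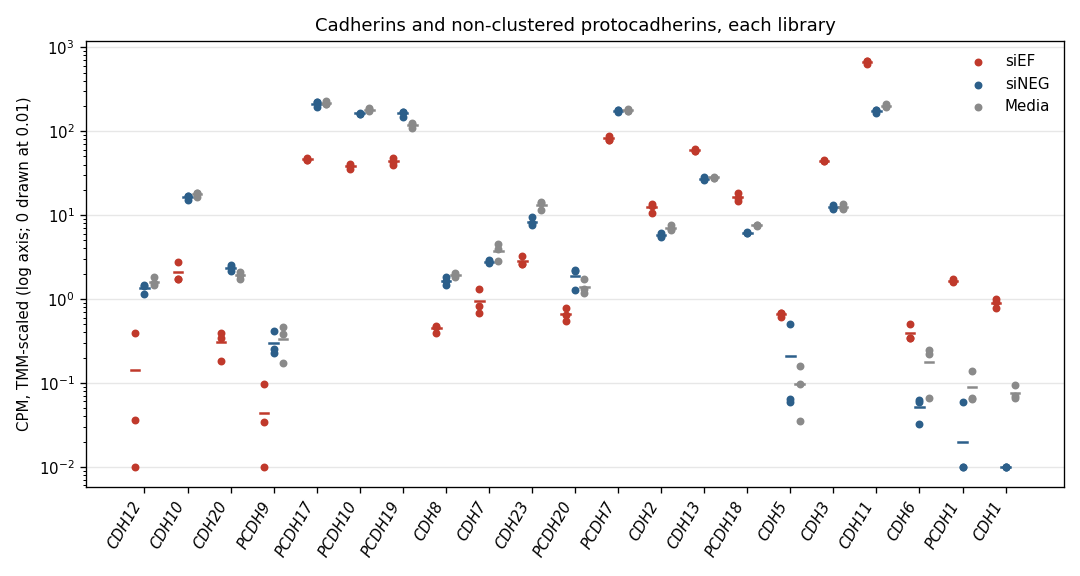
TMM-scaled CPM on a log axis of the named cadherins and non-clustered protocadherins in each of the 9 libraries (points), with the group mean (dash), ordered by log2 fold change of siEF against siNEG. A value of 0 is drawn at 0.01. CDH10, PCDH17, PCDH10 and PCDH19 stand lower in siEF, and CDH3, CDH11, PCDH1 and CDH1 higher.

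The clustered protocadherins lie side by side on chromosome 5 of GRCh38, and their promoters are known to share a short conserved element and to bind the factor CTCF. The RefSeq promoter sequences (GRCh38.p14, 250 bases before to 50 after each start) covered 68 members, among them 47 clustered ones. They are shown here because 32 of the 33 tested clustered members had a log2 fold change above 0, as did 52.2% of all genes tested. The share of clustered members is not free of the filter, since low members had to be higher in some group to be tested. The word GNCGCT, where N is any base, stood on the strand of the gene and within 100 bases upstream of the start in 42 of the 47 clustered promoters (89.4%), in 11 of 13 of the alpha, 13 of 14 of the beta and 18 of 20 of the gamma cluster. Of the 21 other member promoters 3 held it there, and of all 35116 promoters 12.1%. On either strand anywhere in the window it stood in 45 of 47 clustered promoters (95.7%) and in 15459 of all 35116 promoters. The word was spelled after the letters shared by these promoters were seen, and a match in a window is a description of letters only. The 32 bases around it are given below 5′ to 3′ for the most abundant members and for others with large rises, with the 6 matching bases in capitals.
PCDHA4, chr5:140806980-140807011, plus strand: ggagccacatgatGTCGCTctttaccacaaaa
PCDHA10, chr5:140855842-140855873, plus strand: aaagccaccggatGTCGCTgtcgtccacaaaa
PCDHB2, chr5:141094545-141094576, plus strand: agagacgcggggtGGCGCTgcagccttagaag
PCDHB4, chr5:141121724-141121755, plus strand: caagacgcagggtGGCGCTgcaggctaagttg
PCDHB14, chr5:141223264-141223295, plus strand: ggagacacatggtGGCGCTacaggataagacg
PCDHGA2, chr5:141338704-141338735, plus strand: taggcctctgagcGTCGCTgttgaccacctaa
PCDHGB2, chr5:141359922-141359953, plus strand: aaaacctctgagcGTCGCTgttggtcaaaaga
PCDHGC3, chr5:141475881-141475912, plus strand: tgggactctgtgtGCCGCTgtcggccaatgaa

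The first capital lay 75, 42, 57, 81, 66, 43, 201 and 72 bases upstream of the RefSeq start in the order given, so that PCDHGB2 was the one at a longer distance. The letters around the core differed by cluster. The word GTGGCGCT stood in 13 of the 14 beta promoters, in none of the alpha or gamma promoters and in 1.15% of all promoters, counting both strands. GTCGCTGT stood in 5 of 13 alpha and 6 of 20 gamma promoters and in 0.65% of all, and GCCGCTGT in 11 of 20 gamma promoters and in 1.63% of all, each of them overlapping GNCGCT. PCDHA9, PCDHAC2 and PCDHGB7 had no GNCGCT on the gene strand of the window, and PCDHGB7 was called higher in siEF (log2 fold change 2.12). PCDHA2 and PCDHB1, which had no count in any library, held the word 57 and 86 bases upstream. PCDHGC4, the only tested clustered member with a negative log2 fold change, held it 64 bases upstream. A link between the word and the differences in siEF was not tested.

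Reads of the clustered genes are shared to different extents, which limits what a single gene's value can say. In the alpha cluster a median of 46.7% of a gene's exonic bases, and in the gamma cluster 43.8%, also belong to another gene on the same strand of GENCODE 44, since the constant exons are annotated to each gene. In the beta cluster, whose genes have a single exon each, that median was 0, but a median of 16.6% of the 50-base words of a gene's exonic sequence occurred elsewhere in the transcripts, with up to 49.2% for 1 gene. RSEM splits such reads by probability, and 47.9% of the deposited values of the alpha genes, 73.6% of the beta and 73.7% of the gamma genes were not whole numbers, against none for the non-clustered protocadherins. Sums over a cluster do not depend on how reads are split among its members, and are therefore given first. Reads that RSEM gave to genes outside the naming rule are not in these sums.

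The alpha cluster summed to 20.1, 18.95 and 19.4 CPM in the siEF libraries, 5.05, 5.19 and 6.19 in siNEG and 5.65, 5.30 and 5.73 in Media, a log2 ratio of the siEF to the siNEG mean of 1.83. The beta cluster summed to 34.7, 32.96 and 33.08 CPM in siEF, 18.7, 20.75 and 17.9 in siNEG and 18.1, 19.8 and 19.4 in Media, a log2 ratio of 0.81. The gamma cluster summed to 253.6, 254.5 and 250.1 CPM in siEF, 87.1, 96.4 and 106 in siNEG and 105, 112 and 102 in Media, a log2 ratio of 1.39. In all 3 clusters the siEF libraries lay above all control libraries, and the siNEG and Media libraries overlapped. A single gene held much of each sum, namely PCDHA10, PCDHB2 and PCDHGC3, with 41.0%, 74.3% and 83.4% of the sum in siNEG and 44.9%, 63.7% and 72.7% in siEF. Without these genes, which were picked after their values were seen, the log2 ratios were 1.72, 1.31 and 2.12.

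Of the 17 tested gamma genes 10 were called higher, against 17.1% of all genes tested. The median log2 fold change of the 17 was 1.73, and PCDHGC4 was the only 1 with a negative value (-1.34, adjusted p = 0.0979, edgeR). Low gamma genes, too, had to be higher in some group to be tested. PCDHGC3, a C-type isoform that many cell types express, had 187, 183 and 181 CPM in the siEF libraries, 71.3, 80.2 and 90.2 in siNEG and 89.1, 92.7 and 85.6 in Media. All siEF libraries lay above all control libraries, and the log2 fold change against siNEG was 1.19 (SE 0.07, adjusted p = 6.73e-11, edgeR). PCDHGB2 rose more, from 5.15, 5.42 and 4.10 CPM in siNEG and 5.98, 7.23 and 6.60 in Media to 35.1, 38.0 and 39.4 in siEF. Its log2 fold change was 2.93 (SE 0.10, adjusted p = 1.68e-13, edgeR) against siNEG and 2.50 against Media. PCDHGB6 had 8.13, 7.25 and 7.44 CPM in siEF and 1.83, 2.92 and 2.12 in siNEG (log2 fold change 1.73, SE 0.17). PCDHGA2 had 26, 49 and 36 counts in siEF, 3, 7 and 4 in siNEG and 9, 17 and 4 in Media, with log2 fold changes of 3.34 (SE 0.54) against siNEG and 2.18 against Media. PCDHGB1 had 23, 20 and 47 counts in siEF and 7, 6 and 6 in siNEG (log2 fold change 2.52, SE 0.42).

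Of the 12 tested beta genes 7 were called higher, against 17.1% of all genes tested, and all 12 had a log2 fold change above 0, with a median of 1.58. Low beta genes had to be higher in some group to be tested, which bears on these values. PCDHB2, the most abundant of the beta genes, had 22.04, 21.2 and 21.0 CPM in siEF, 14.4, 14.97 and 13.2 in siNEG and 13.9, 14.9 and 13.8 in Media. The siEF libraries lay above all control libraries, but the log2 fold change against siNEG of 0.59 (SE 0.07, adjusted p = 1.87e-06, edgeR) was under the fold cut-off. The 3 largest rises were those of PCDHB4, PCDHB16 and PCDHB14, all under 1 CPM in siNEG. PCDHB4 had 21, 10 and 16 counts in siEF against 2, 3 and 4 in siNEG (log2 fold change 2.64, SE 0.51). PCDHB14 had 52, 40 and 53 counts in siEF against 21, 19 and 8 (1.92, SE 0.33), and PCDHB16 had 26, 26 and 8 against 3, 9 and 5 (2.18, SE 0.56). PCDHB16 was not called against Media (log2 fold change 0.98) and lost its call when siEF replicate 1 or 2 or siNEG replicate 1 or 3 was left out (1.76 to 2.12). PCDHB3 and PCDHB12, next in abundance, were not called, at 0.90 and 0.05, and PCDHB12 changed sign with 1 library left out.

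Of the 16 alpha genes only PCDHA4, PCDHA6, PCDHA7 and PCDHA10 passed the filter, and all but PCDHA7 were called higher. PCDHA10 had 8.42, 8.47 and 9.29 CPM in siEF, 1.96, 2.53 and 2.18 in siNEG and 2.02, 1.999 and 2.65 in Media, with a log2 fold change against siNEG of 1.97 (SE 0.16, adjusted p = 6.94e-09, edgeR). PCDHA4 had 4.59, 3.77 and 4.52 CPM in siEF and 0.727, 0.560 and 0.994 in siNEG (log2 fold change 2.50, SE 0.24). PCDHA6 had 4.34, 2.89 and 3.77 CPM in siEF and 1.17, 1.297 and 2.15 in siNEG (1.26, SE 0.26). In all 3 the siEF libraries lay above the controls. Among the alpha genes too low to test, PCDHAC2 had 32, 24 and 9 counts in siEF, while the 6 control libraries held 1 to 10. PCDHA12 had 5, 13 and 10 counts in siEF and 1 count in the 6 control libraries together, a ratio of siEF to siNEG of 35.1 with a 95% exact interval of 5.80 to 1434 for counting error only. The filter keeps genes that are high in at least 1 group, so that low members had to be higher somewhere to be tested, and 15 of the 20 clustered members called higher were under 1 CPM in siNEG. The log2 fold changes of these 20 ranged from 1.19 to 3.34. PCDHB9, 1 of the 20, was called although its groups overlapped, with 23, 5 and 30 counts in siEF and 4, 11 and 5 in siNEG.

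**Figure D3:**
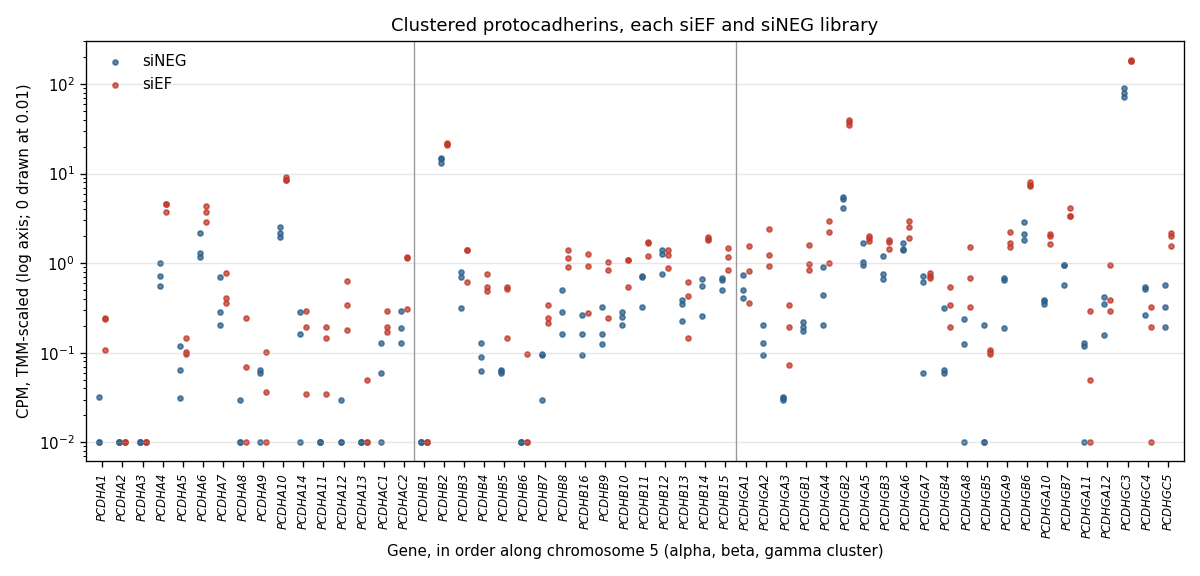
TMM-scaled CPM on a log axis of the 54 clustered protocadherins in each siEF (red) and siNEG (blue) library, in order along chromosome 5, with lines between the alpha, beta and gamma clusters. A value of 0 is drawn at 0.01. PCDHA10, PCDHB2 and PCDHGC3 are the highest of their clusters in both groups, and PCDHGB2 stands apart from its neighbours in siEF.

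**Figure D4:**
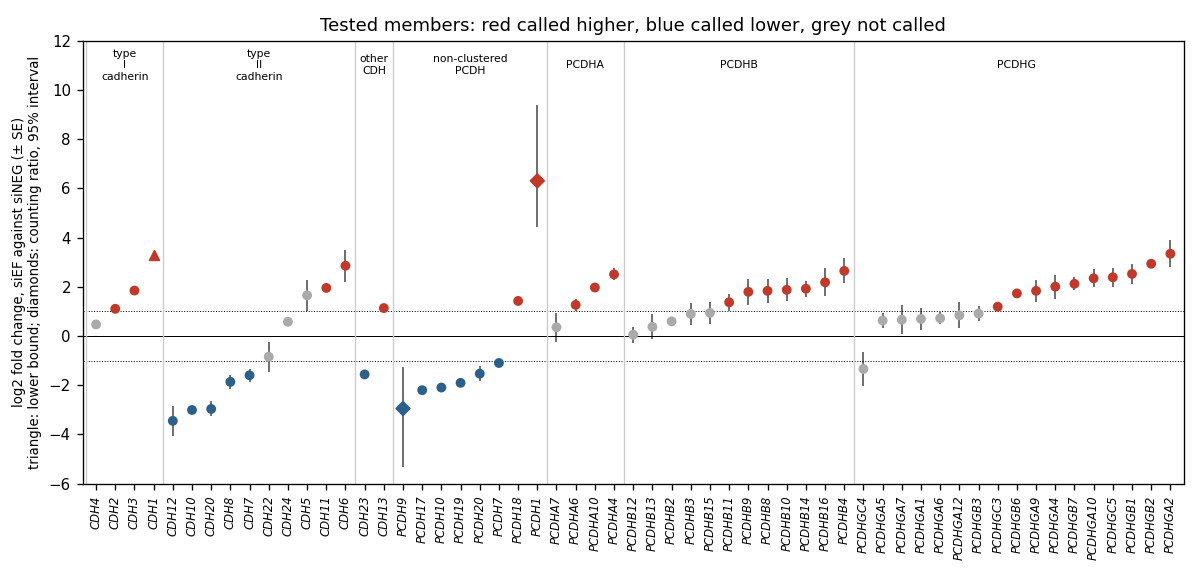
Log2 fold change of siEF against siNEG (± SE, edgeR) of the 57 tested members by class, red where called higher, blue where called lower and grey where not called. CDH1 is drawn at its lower bound (triangle, 9.74-fold), PCDH1 and PCDH9 at the ratio of their counts with its 95% interval (diamonds). The clustered genes lie above 0 with the exception of PCDHGC4, and 6 of 8 non-clustered protocadherins below.

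Between siNEG and Media no member was called, where 0.162% of all genes tested were called higher and 0.267% lower in edgeR's quasi-likelihood test, and DESeq2 called 0 members too. An unadjusted p under 0.05 was reached by 12 of the 57 members and by 30.3% of all genes tested. With no fold cut-off, 3 members and 9.79% of all genes tested had an adjusted p under 0.01 in the edgeR test, and the members were CDH11 (log2 fold change of siNEG against Media -0.22), CDH23 (-0.66) and PCDH19 (0.45). In siEF against Media, which shares the siEF libraries with the comparison above, 26 members were higher and 12 lower, where 17.4% of all genes tested were called higher and 12.5% lower. The classes had the same counts as against siNEG except that the beta cluster had 6 and the type I cadherins 2 called higher.

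Genes of the adhesion pathway outside the naming rule, called partners here, were examined from a list of 51. The list held catenins, 7 desmosomal cadherins, 19 other cadherin-domain genes and intracellular protocadherin partners, so that many are themselves cell-surface molecules. Of the 51 genes, 34 were tested, and 11 were higher and 3 lower in siEF than in siNEG. Over all genes tested 17.1% were called higher and 11.7% lower. The median log2 fold change was 0.37 over the 34 partners and 0.05 over all genes tested. JUP (plakoglobin), which takes the place of beta-catenin at adherens junctions and is part of desmosomes, went from 14.2 ± 0.842 CPM (SD, n = 3) in siNEG and 20.68 ± 0.581 in Media to 122 ± 3.68 in siEF, with a log2 fold change against siNEG of 3.10 (SE 0.06, adjusted p = 2.60e-16, edgeR). VCL (vinculin), an actin linker of adhesion sites, had a log2 fold change of 1.96 (SE 0.04). Beta-catenin (CTNNB1, 0.49), p120-catenin (CTNND1, 0.40) and alpha-catenin (CTNNA1, 0.33) were each higher in siEF by less than the fold cut-off. Of the 11 tested genes in the group of catenins and plakophilins, which also holds VCL and AFDN, 4 were higher, among them VCL, and none lower. Of the 7 desmosomal cadherins none passed the filter. Of 13 tested other cadherin-domain genes 5 were higher and 3 lower, among them CLSTN3, a calsyntenin of synapses (1.92), DCHS1, a large cadherin of tissue polarity (1.83), and PCDH11X, a delta protocadherin whose symbol falls outside the naming rule (-1.97). Of the 10 intracellular partners of protocadherins, which include FYN and the WAVE complex, 2 were higher and none lower.

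The GGAA microsatellites at which EWS::FLI1 is known to bind were located around the members in hg38, as runs of at least 4 GGAA units on either strand. A run lay within 100 kb of the start of 5 of the 12 members called lower and 4 of the 8 CDH and non-clustered PCDH members called higher, and of 54.4% of all genes tested. All 54 clustered genes had one within 100 kb, but they share 1 locus. The runs nearest to a called member outside the clusters were 11 units (TTCC on the plus strand) at chr10:71403410-71403453, in an intron of CDH23 and 6490 bases after its start, and 13 units at chr5:141890593-141890644, outside and 12183 bases upstream of the start of PCDH1. CDH23 was lower and PCDH1 higher in siEF. Binding was not measured in these libraries. In the promoters, GGAAGGAA or its reverse complement stood in 3 of 47 clustered and 3 of 21 other member promoters, and in 3.67% of all promoters.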

How the data were processed

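Reads were aligned by the authors with STAR on hg38, and RSEM gave the deposited expected counts per gene, which were neither scaled for depth nor pooled. The submitters' processing notes also name FastQC, cutadapt 2.10 and DESeq2 1.32.0. The annotation release and the strand setting are not given in the sources used here, so reads of antisense genes may be included. The extraction label names a small RNA library kit while the molecule is given as polyA RNA.

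The 9 libraries, 3 per group, had between 20727706 and 33134581 counts. Replicates of a group never agreed within sampling noise (chi-square over its degrees of freedom at least 3.57). Expected counts were rounded, filtered with filterByExpr (16093 genes kept), scaled by TMM (factors of 0.970 to 0.986 in siEF and 0.994 to 1.03 elsewhere) and compared by edgeR's quasi-likelihood test (version 4.0.16, R 4.3.3), with a mean per group over all 9 libraries and Benjamini-Hochberg adjustment over all genes tested. A standard error is the absolute log2 fold change over the root of its F statistic. The procedure was also run on simulated data, in which only genes with higher counts were changed. That run does not bear on the calls of members with few counts. Positions and lengths came from GENCODE 44, which holds all 88 members, and shared sequence was counted in words of 50 bases. Exact intervals are conditional binomial (Clopper-Pearson).

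The members and lists were chosen with earlier results of these data known. Named were every cadherin or non-clustered protocadherin called in any comparison and the 5 highest by RPKM, in each cluster the 3 called members with the largest rises, the 3 with the largest falls and the 3 highest by RPKM, CTNNB1, CTNND1, CTNNA1, JUP, the 5 called partners with the largest change, and FLI1. CDH4, CDH22, CDH24, PCDHGC4, PCDHB9, PCDHA12 and PCDHAC2 were named after their values were seen. The alternatives were DESeq2 1.42.0, other scalings and filters, other cut-offs, unrounded counts, only the groups compared, Media as the control, the replicate number as a block, and each library left out in turn.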

Additional observations from a re-analysis of the deposited data

How the results depend on the processing

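Named members not tested under an alternative gave no value there. This held for some with at least 10 counts in every library and with only the groups compared. Of 615 values of the 35 named members under the alternatives, 600 kept their direction and their side of the threshold, and 11 lost the call. Another 2 gained it (CDH5, with Media as the control or without siNEG replicate 1) and 2 changed sign. The 2 were those of PCDHB12, at -0.10 without siEF replicate 1 and -0.20 without siNEG replicate 1, and its values ranged from -0.20 to 0.22 over the left-out libraries without a call. Counts of calls moved most with the filter and the cut-off. With at least 10 counts in every library, 13 members were higher in siEF than in siNEG and 21 were called against Media, since fewer members were tested. When edgeR tested against the cut-off itself, these counts were 17 and 22, and 9 partner genes were called, while 30 partner genes were called with no fold cut-off. Between siNEG and Media, 3 members and 9.79% of all genes tested were called with no fold cut-off. At an adjusted p under 0.05, 1 member, CDH1, was called there. DESeq2 called 30 members higher and 11 lower in siEF than in siNEG. The shares of all genes called in siEF are not given for these alternatives. Their counts therefore describe only how the calls depend on the setting. With each library left out in turn, between 25 and 31 members were higher and 11 or 12 lower, and the calls lost were among PCDHB8, PCDHB9, PCDHB10, PCDHB11, PCDHB16, PCDHGA4 and PCDH9. The replicate numbers do not pair the libraries, as the deviations of libraries with the same number had correlations from -0.09 to 0.05, and with the replicate number as a block 27 members were higher and 12 lower. Upper quartile scaling moved the median log2 fold change of all genes by 0.09 and RLE by -0.01. The cluster sums kept their direction under each scaling, control and left-out library tried. Counts limit the members under about 1 CPM, where a few reads set the fold change.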
